A study of Mus musculus with 2 samples.

Results

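The genes described here are the vomeronasal type 1 receptor genes of the mouse, whose symbols start with Vmn1r. They were taken from the GENCODE M21 annotation of GRCm38 by symbol and protein-coding type, which gave 209 genes of the 21755 protein-coding genes on chromosomes 1 to 19 and X. They carry 208 symbols, because Vmn1r216 has 2 overlapping gene records, and 2 of the symbols end in -ps although the annotation types them as protein-coding. Each gene was set against a list of 7435 chromatin boundaries, 5 kb wide, that the authors called on Hi-C data of olfactory sensory neurons.

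The cells were sorted by flow cytometry from MOR23-GFP reporter mice for expression of Olfr16, an odorant receptor gene with the older name MOR23. The mice were untreated adults of mixed sex whose strain is not specified in the labels, the tissue was olfactory epithelium, and 28000 and 24400 cells went into the 2 biological replicates. In situ Hi-C, which ligates and sequences pairs of DNA fragments that are neighbours in the nucleus, was run with DpnII after fixation in 1% formaldehyde. Both replicates form 1 group and the list was called on their contacts combined, so no spread between replicates and no depth per boundary can be given, and the identity of the sorted cells was not checked against marker genes. The number of animals pooled per replicate is not given in the labels used here.

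Vmn1r genes encode G protein-coupled receptors of the vomeronasal organ, the sense organ that detects pheromones. They are expressed in the apical layer of vomeronasal neurons, which signal through the G protein subunit Gnai2 and the channel Trpc2, and their coding sequence lies in a single exon. Like odorant receptors they occur in tandem arrays of similar copies, and each vomeronasal neuron expresses very few of them. The neurons of the list belong to the main olfactory epithelium and express an odorant receptor instead. A boundary in Hi-C data is a position across which contacts drop. In mammals such positions often hold sites of the DNA-binding protein CTCF or the starts of active genes.

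The results turned on 2 kinds of sequence, the few Vmn1r starts that lie in a boundary and the near-identical copies that lie far from any. For the first kind, the 120 bases before the GENCODE start are shown for the 4 genes that start inside a boundary (reference genome, GRCm38). Each stretch lay within its boundary and held no annotated exon. Capitals mark GATC, the letters DpnII cuts at, which occurred once before Vmn1r193 and not in the other stretches. The stretches are at chr13:22223161-22223280 on the minus strand for Vmn1r193, chr6:66810610-66810729 on the minus strand for Vmn1r39, chr7:5149671-5149790 on the minus strand for Vmn1r55 and chr7:23926858-23926977 on the plus strand for Vmn1r179.
Vmn1r193: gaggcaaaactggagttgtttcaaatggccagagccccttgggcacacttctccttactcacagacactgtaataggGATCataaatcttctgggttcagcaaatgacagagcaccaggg
Vmn1r39: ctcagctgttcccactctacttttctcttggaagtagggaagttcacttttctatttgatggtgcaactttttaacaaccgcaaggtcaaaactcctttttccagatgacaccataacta
Vmn1r55: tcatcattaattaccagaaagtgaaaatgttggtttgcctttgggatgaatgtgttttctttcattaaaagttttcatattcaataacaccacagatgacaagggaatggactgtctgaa
Vmn1r179: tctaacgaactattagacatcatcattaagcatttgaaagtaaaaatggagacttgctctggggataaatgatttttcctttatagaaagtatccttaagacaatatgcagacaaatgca

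For the second kind, 3 promoter stretches of the largest cluster are shown, from the RefSeq table of GRCm38.p6, each with 250 bases before and 50 after the annotated start on the plus strand. They were chosen after their values were seen, as an example of a copy pair. Vmn1r107 is at chr7:20668668-20668967, Vmn1r155 at chr7:22657768-22658067 and Vmn1r104 at chr7:20533587-20533886. In these gene models the annotated start is the start codon, so the 250 bases lie before the coding sequence and not before a known transcription start. Capitals mark bases that differ from Vmn1r107.
Vmn1r107: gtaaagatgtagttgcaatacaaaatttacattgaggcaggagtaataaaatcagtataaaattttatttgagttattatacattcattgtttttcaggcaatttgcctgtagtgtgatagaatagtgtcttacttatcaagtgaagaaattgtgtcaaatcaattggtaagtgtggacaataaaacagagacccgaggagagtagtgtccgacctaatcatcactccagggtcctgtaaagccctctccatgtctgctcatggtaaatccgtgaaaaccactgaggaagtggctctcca
Vmn1r155: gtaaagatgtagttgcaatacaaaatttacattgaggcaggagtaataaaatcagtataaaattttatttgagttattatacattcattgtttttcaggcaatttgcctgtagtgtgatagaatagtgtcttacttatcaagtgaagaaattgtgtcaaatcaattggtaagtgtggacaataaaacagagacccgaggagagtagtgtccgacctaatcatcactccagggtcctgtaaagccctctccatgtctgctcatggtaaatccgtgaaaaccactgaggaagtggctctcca
Vmn1r104: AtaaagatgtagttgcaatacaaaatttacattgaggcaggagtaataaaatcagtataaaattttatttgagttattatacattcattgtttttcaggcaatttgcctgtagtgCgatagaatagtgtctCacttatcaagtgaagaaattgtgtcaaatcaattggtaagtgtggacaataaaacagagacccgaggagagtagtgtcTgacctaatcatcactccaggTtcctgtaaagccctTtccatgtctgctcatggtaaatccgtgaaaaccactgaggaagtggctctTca
The stretches of Vmn1r107 and Vmn1r155, 1.99 Mb apart, had 0 differing bases among 300, and Vmn1r104 differed from Vmn1r107 at 7 (97.7% identity). None of the 3 held GATC. A fragment of such sequence alone does not tell which copy it came from. The same held for a stretch of interspersed repeat in that cluster, chr7:20453801-20453850 on the plus strand, whose 50 bases had 20919 exact copies in the genome on either strand.
repeat word: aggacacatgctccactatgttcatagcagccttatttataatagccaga

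Vmn1r gene starts lay far from boundaries. The distance from a start to the nearest boundary had a median of 150.2 kb (quartiles 64.3 and 307.7 kb), against 58.4 kb (quartiles 25.6 and 107.8 kb) for all protein-coding starts. Within 10 kb of a boundary were 9 of 209 Vmn1r starts, which is 4.31% (exact Clopper-Pearson 95% interval 1.99 to 8.02%, counting error only), and 12.4% of all protein-coding starts. Neighbouring members share boundaries and sequence, so the genes are not independent draws, and no test was made.

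The same order held at the other distances used. Inside a boundary were 4 Vmn1r starts (1.91%) against 3.25% of all coding starts. A boundary overlapped the body of 6 Vmn1r genes (2.87%), against 15.4% of all coding genes, whose bodies include many longer ones. Within 25 kb were 22 starts (10.5%) against 24.6%.
Counted beyond a distance, the Vmn1r shares were the higher ones, which is the same direction, farther from boundaries. More than 100 kb from any boundary were 131 Vmn1r starts (62.7%), against 27.6% of all coding starts. More than 500 kb away were 40 (19.1%), against 2.51%. All 40 lay in the same cluster, Vmn1r91 to Vmn1r183 on chromosome 7. Without that cluster's 65 genes, the 144 remaining members had a median distance of 104.6 kb, 7 of them (4.86%) started within 10 kb and 0 lay beyond 500 kb.

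**Figure D1:**
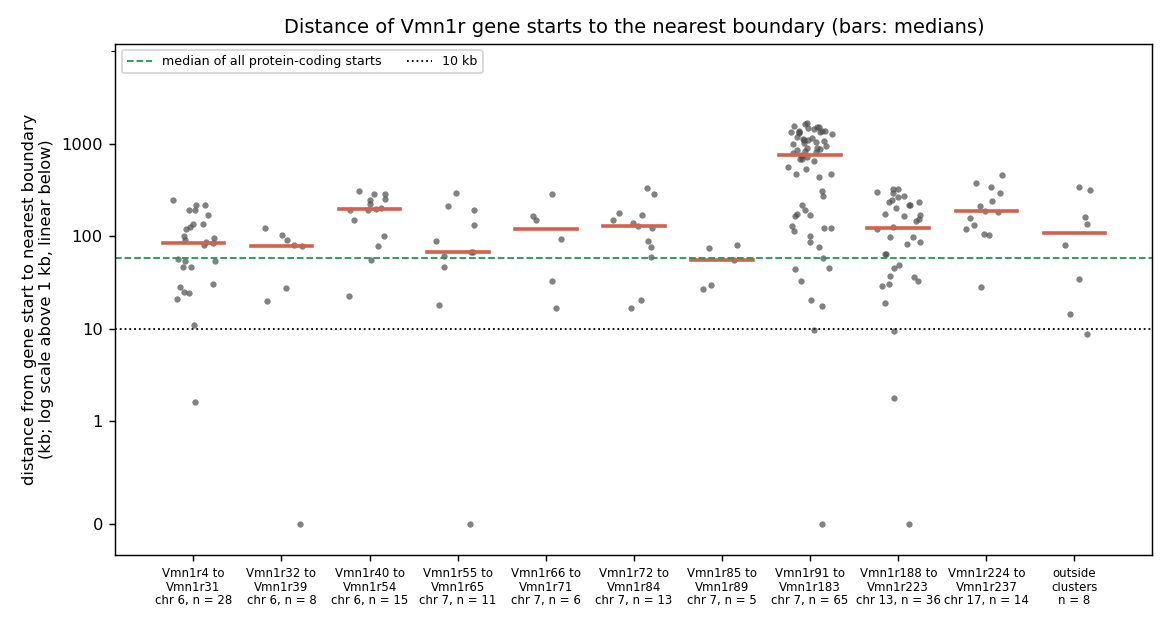
Distance in kb from each Vmn1r gene start to the nearest boundary (vertical axis, logarithmic above 1 kb), by cluster, with a red bar at the median of each cluster. The dashed line is the median of all protein-coding starts, 58.4 kb, the dotted line is at 10 kb, and the cluster Vmn1r91 to Vmn1r183 stands highest with a median of 763.3 kb.

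The 9 starts within 10 kb were spread over 5 clusters and the X chromosome. Boundaries are given by the authors' class, Strong or Weak, and by the authors' strength score, whose formula is not given in the sources used here. All Strong boundaries score at least 0.50, Weak ones score lower, and the median of the list is 0.520. For 4 of the 9 the boundary was Strong and for 5 it was Weak, while 3854 of the 7435 boundaries of the list are Strong. Of all Vmn1r starts, 4 lay within 10 kb of a Strong boundary, against 7.88% of all coding starts.

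Vmn1r55, a member of the V1rd subfamily on chromosome 7, started inside a Strong boundary with a score of 0.690 (5145001 to 5150000). Vmn1r179, also known as V1rd17, started inside a Strong boundary scored 0.851 (chromosome 7, 23925001 to 23930000). Vmn1r39, the last gene of its cluster on chromosome 6, started inside a boundary scored 0.501, just above the limit between the classes. All 3 boundaries held sequence that is mostly unique in the genome: 92.0, 96.0 and 100% of their 50-base words occurred once.

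On chromosome 13, Vmn1r193 started inside a Weak boundary scored 0.224 (22220001 to 22225000). Vmn1r204 started 1.80 kb from another Weak boundary scored 0.224 (22555001 to 22560000), which overlapped its exons. Both boundaries are among the lowest of the list, at or above 6.94 and 7.07% of it. The gene most like Vmn1r193 in coding sequence was Vmn1r204, with 87.6% identity. Vmn1r188, the first gene of that cluster and a V1rh receptor, started 9.44 kb from a Strong boundary scored 1.82, just inside the 10 kb limit.

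The remaining 3 starts lay near Weak boundaries. Vmn1r30, a V1rc receptor of chromosome 6, started 1.62 kb from a boundary scored 0.243. Vmn1r168 started 9.73 kb from the boundary scored 0.235 that ends the longest interval described further on. Vmn1r239-ps on the X chromosome started 8.71 kb from a boundary scored 0.272, and only 10.0% of the words of this gene were unique. Just outside 10 kb were Vmn1r4 at 10.99 kb and Vmn1r1 at 14.5 kb.

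By the GENCODE models, Vmn1r4 is the gene that a Strong boundary crosses without lying at its start. The boundary at chromosome 6, 56935001 to 56940000, lay in its GENCODE intron and scored 2.65, at or above 99.3% of the list. The RefSeq start of Vmn1r4 lies 32.5 kb farther in and 16.5 kb from this boundary, which by RefSeq lies before the gene. The start of Nt5c3, a nucleotidase gene next to the cluster, lay 11.1 kb from the same boundary. Vmn1r1, the gene of chromosome 1, started 14.5 kb from a Strong boundary scored 1.44.

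Annotated starts of these genes differ between sources by kilobases, which matters at a limit of 10 kb. RefSeq starts could be matched for 184 members, and 119 of them differed from the GENCODE start by over 1 kb (median difference 2.23 kb). With RefSeq starts, 6 of 184 lay within 10 kb and the median distance was 152.5 kb. Vmn1r55, Vmn1r179, Vmn1r193, Vmn1r204 and Vmn1r30 were near by both annotations, Vmn1r193 at 0.181 kb and Vmn1r30 at 9.16 kb by RefSeq. Vmn1r188 moved to 12.9 kb and Vmn1r168 to 10.7 kb, whereas Vmn1r1 came to 8.10 kb.

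Grouping genes less than 500 kb from the next, with no fewer than 5 to a group, gave 10 clusters holding 201 members and 10.6 Mb of sequence. The midpoints of 14 boundaries lay inside the clusters, 1.32 per Mb (exact Poisson 95% interval 0.721 to 2.21, counting error only), against 2.91 per Mb over the stretch of the chromosomes covered by the list. Of the 14, 5 were Strong, against 3854 of 7435 in the list. The median score of the 14 was 0.349, against 0.520 for the list. Without the largest cluster the density was 1.80 per Mb.

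**Figure D2:**
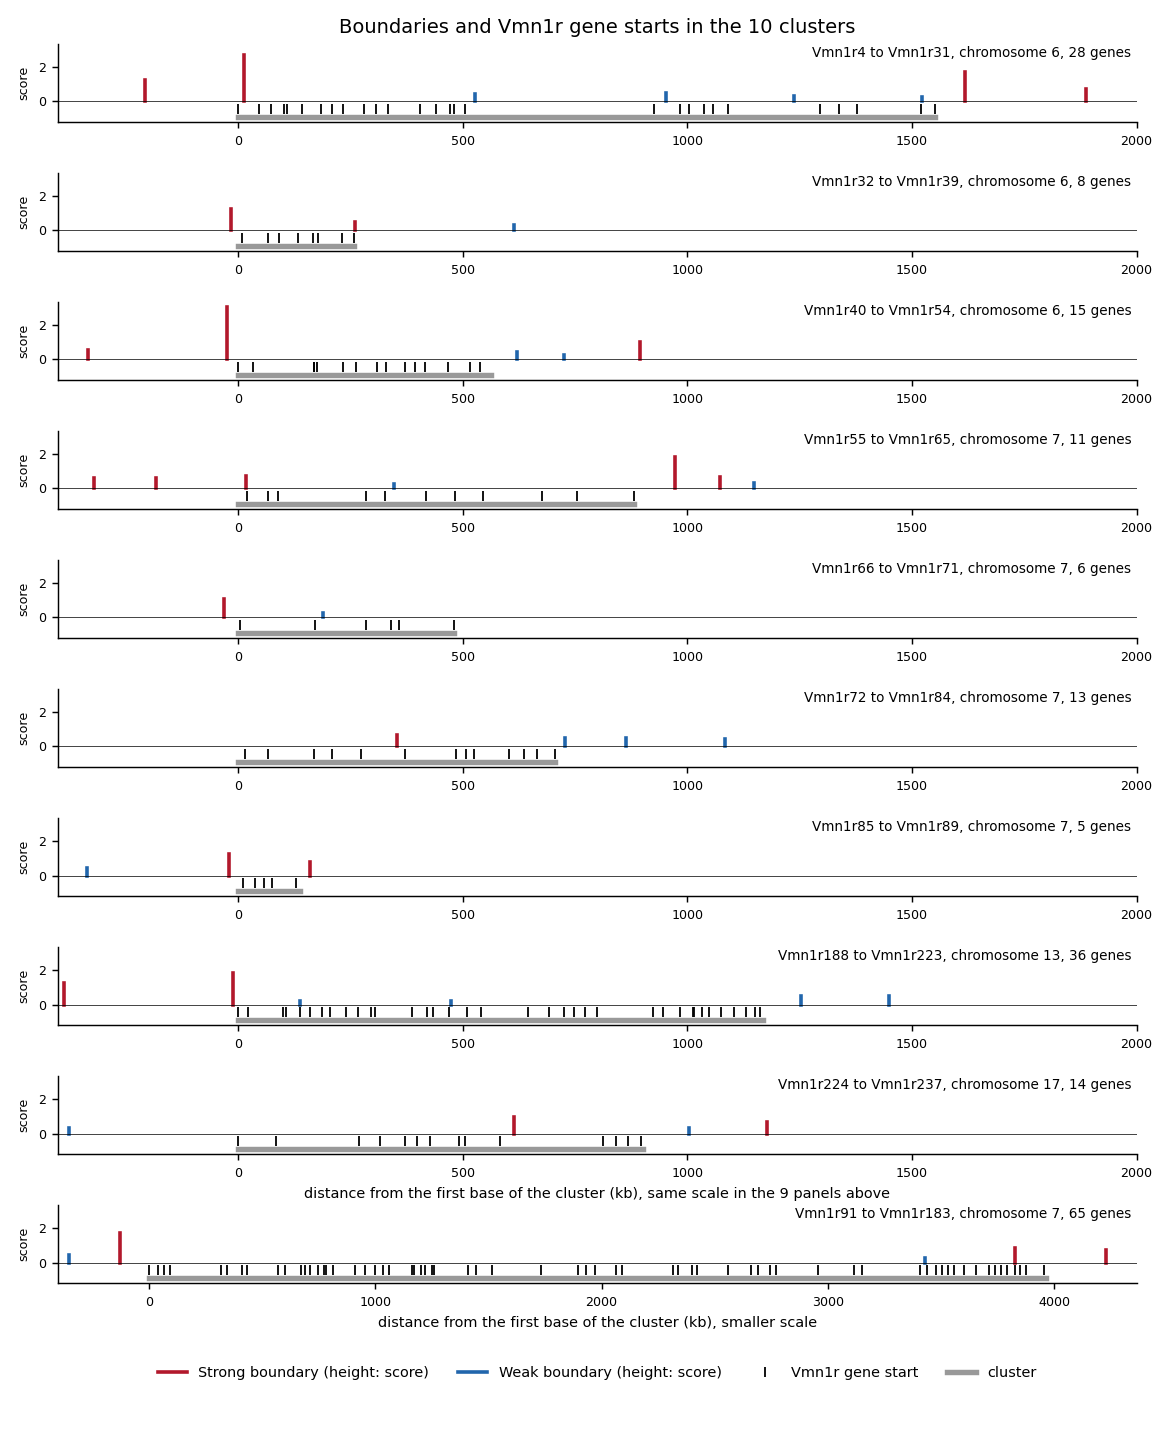
Boundaries (vertical bars, height the authors' score, red Strong and blue Weak), Vmn1r gene starts (black ticks) and cluster spans (grey) along each of the 10 clusters, with the distance from the first base of the cluster in kb on the horizontal axis. The lowest panel, on a smaller scale, is the cluster Vmn1r91 to Vmn1r183, whose only 2 inside boundaries lie at its right end, 3425 and 3825 kb from its first base.

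Clusters differed in how boundaries fell in them. Vmn1r4 to Vmn1r31 on chromosome 6, mostly V1rc receptors (25 of 28 genes), held 5 boundaries in 1.55 Mb, 3.22 per Mb, and its starts lay in 6 intervals between boundaries. Of those 5, the boundary in the intron of Vmn1r4 was Strong and the other 4 were Weak, with scores from 0.243 to 0.495. This cluster was the 1 of 10 whose density exceeded that of the list, with the GENCODE start of Vmn1r4 as its first base. From the RefSeq start of Vmn1r4, 32.5 kb farther in, the Strong boundary would lie outside the cluster. The density was not computed that way. The median start of the cluster lay 85.8 kb from a boundary.

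In contrast, 3 clusters held no boundary midpoint within their span. Vmn1r40 to Vmn1r54 on chromosome 6, which holds 8 V1ra and 6 V1rb genes, lay with all 15 starts in a single interval of 640 kb. Its first gene, Vmn1r40, started 22.5 kb from that interval's left boundary, a Strong one scored 3.02, and its last, Vmn1r54, ended 53.8 kb from the right one, a Weak one scored 0.438. In a single interval the distances must rise from both ends towards the middle, and the largest was 308.9 kb at Vmn1r47 (chosen after its value was seen).
Vmn1r85 to Vmn1r89 on chromosome 7, with 2 V1rj genes and 1 V1rk gene, lay with all 5 starts in an interval of 175 kb between Strong boundaries scored 1.23 and 0.766. These boundaries lay 18.3 and 19.3 kb from the cluster's ends. Vmn1r32 to Vmn1r39 lay in an interval of 270 kb between Strong boundaries scored 1.26 and 0.501, with its last gene, Vmn1r39, starting in the right one.

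The other V1R clusters were crossed by 1 or 2 boundaries each. Vmn1r55 to Vmn1r65 on chromosome 7, with 8 V1rd genes, held a Strong boundary at Vmn1r55 and a Weak one scored 0.232 that overlapped an exon of Vmn2r28, a type 2 vomeronasal receptor gene. Vmn1r66 to Vmn1r71 held 1 Weak boundary scored 0.283, and Vmn1r72 to Vmn1r84, which holds 11 V1rg genes, 1 Strong boundary scored 0.684 near its middle. Vmn1r224 to Vmn1r237 on chromosome 17, with 8 V1re and 5 V1rf genes, held 1 Strong boundary scored 0.972, which overlapped coding sequence of Zfp160, a zinc finger gene whose start lay 16.1 kb away. Vmn1r188 to Vmn1r223 on chromosome 13 held 36 genes, 20 of them V1rh and 10 V1ri, and 2 Weak boundaries, those at Vmn1r193 and Vmn1r204.

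Boundaries at the edges of clusters scored higher than those inside. Of the 20 cluster ends, 9 (45%) lay within 25 kb of a boundary, against 24.6% of all coding starts. In all, 21 boundaries lay inside a cluster or within 25 kb of an end, and 7 of these lay outside the span. Of the 7, 6 were Strong, with a median score of 1.23, against 5 of 14 and 0.349 inside. In the whole list 3854 of 7435 are Strong and the median score is 0.520. The 14 include the boundary at Vmn1r4, scored 2.65, which is inside only by the GENCODE start of that gene. The classes were not tested against each other, since both counts are small and come from 1 list.

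Of the 7 edge boundaries, 2 lay within 10 kb of the start of a coding gene outside the family. For the other 5 the nearest such start was 26.8 to 81.4 kb away. The same share over all boundaries of the list is not given here, so these distances are a description only. The boundary before Vmn1r32 (66535001 to 66540000, score 1.26) held the start of Mad2l1, a spindle checkpoint gene. The boundary before Vmn1r85 lay 5.24 kb from the start of Mzf1, a zinc finger transcription factor, and that after Vmn1r89 lay 32.3 kb from Lig1, a DNA ligase. The boundary before Vmn1r188 lay 26.8 kb from Hist1h2bj, a histone gene, and that before Vmn1r40 36.01 kb from Txnrd3, a thioredoxin reductase. The boundary after Vmn1r39 lay 81.4 kb from Gng12, a G protein subunit gene, and that after Vmn1r84 27.8 kb from Zfp551.

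Inside the clusters the nearest other gene was mostly farther. Member genes do not count here and clusters are runs of members, so this follows in part from how clusters are defined. Next to Vmn1r55 the start of Rasl2-9 lay 19.1 kb from the boundary, and that of Vmn2r28 14.0 kb from the Weak boundary of the same cluster. For the Weak boundaries of Vmn1r4 to Vmn1r31, the nearest other starts were those of Ppm1k at 80.5 kb, Vopp1 at 49.8 and 334.8 kb, and Abcg2 at 134.5 kb. Zik1 lay 30.4 kb from the boundary in Vmn1r66 to Vmn1r71, and Zfp551 402.8 kb from that in Vmn1r72 to Vmn1r84. In the largest cluster Nlrp5 lay 139.1 kb from the Weak boundary, and V1rd19, itself a receptor gene, 71.7 kb from the Strong one.

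The CTCF core consensus of 12 letters, searched on both strands, had a match within 10 kb of 1 of the 21 boundaries (4.76%), against 23.1% of the whole list and 11.02% of tiles of 25 kb along the chromosomes. None of the 14 inside boundaries had one, and the density of matches was 1.80 per Mb in the clusters against 4.97 per Mb in the genome. A match is a description of letters, and its lack says nothing about binding of the factor. The match lay in the highest-scored boundary of the set, before Vmn1r40, at or above 99.8% of the list. It is shown with 24 bases on each side (chr6:89680351-89680410, plus strand, GRCm38), with the consensus in capitals.
CTCF match: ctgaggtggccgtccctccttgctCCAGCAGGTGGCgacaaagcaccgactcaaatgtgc

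The stretches between adjacent boundaries, measured from the end of a boundary to the start of the next, were long where they held Vmn1r starts. In all, 202 starts lay in 27 such intervals, 4 lay inside boundaries and 3 before the first boundary of their chromosome. The 27 intervals had a median length of 390 kb (quartiles 275 and 565 kb), against 260 kb (quartiles 180 and 395 kb) for all 7415. Long intervals can hold more genes, so picking intervals by a gene start could favour longer ones. The 5636 intervals with any coding start had a median of 250 kb, against 260 kb for all. Their median share of unique words was 94.2%, against 75.7% for the 27, so the 2 sets differ in sequence. Whether such picking lengthened the Vmn1r intervals was not tested. Intervals over 1 Mb numbered 3 of 27 (11.1%), against 2.99% of all intervals, and they held 60 of the 202 starts (29.7%), against 5.36% of coding starts.

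These 3 intervals all lay on chromosome 7. The longest spanned 19975001 to 23525000, 3550 kb, from Vmn1r91 to Vmn1r167 (chosen after its value was seen), and held 50 Vmn1r starts of 88 coding starts. It ranked 3 by length among 7415 intervals. The next spanned 1550 kb (10465001 to 12015000) with 9 Vmn1r starts of 2 neighbouring clusters, and the other 1505 kb with Vmn1r90 alone. Then followed 985 kb on chromosome 17 with 10 members, 775 kb on chromosome 13 with 20, and 640 kb on chromosome 6 with 15.

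The longest Vmn1r intervals lay in highly repeated sequence. The share of 50-base words that occur once in the genome was 54.6% over the clusters against 88.6% of the genome, and 76.3% without the largest cluster. By cluster it ran from 17.6% in Vmn1r91 to Vmn1r183 and 66.9% in Vmn1r55 to Vmn1r65 up to 88.3% in Vmn1r66 to Vmn1r71. The 27 intervals with Vmn1r starts had a median of 75.7% unique words, against 93.3% of all intervals. Repeated sequence limits where reads can be placed, and its part in the lower density and the longer intervals was not tested.

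Among all intervals, the 65 with under 60% unique words stood apart with a median length of 785 kb. From there up the medians were 320, 255, 330 and 240 kb in the classes from 60, 70, 80 and 90%, without a steady order. The 3 Vmn1r intervals over 1 Mb all belong to the 65, with 11.3, 56.9 and 44.5% unique words. Above 60% unique words, the medians of Vmn1r intervals were longer than those of all intervals of the class in 3 of 4 classes. They were 395 against 320 kb between 60 and 70%, 325 against 255 kb between 70 and 80%, 330 against 330 kb between 80 and 90%, and 302.5 against 240 kb from 90%, with 7, 8, 7 and 2 Vmn1r intervals. The interval of 985 kb on chromosome 17, from Vmn1r224 to Vmn1r233 (the latter chosen after its value was seen), was long at 87.8% unique words, and 7 Vmn2r genes also started in it.

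**Figure D3:**
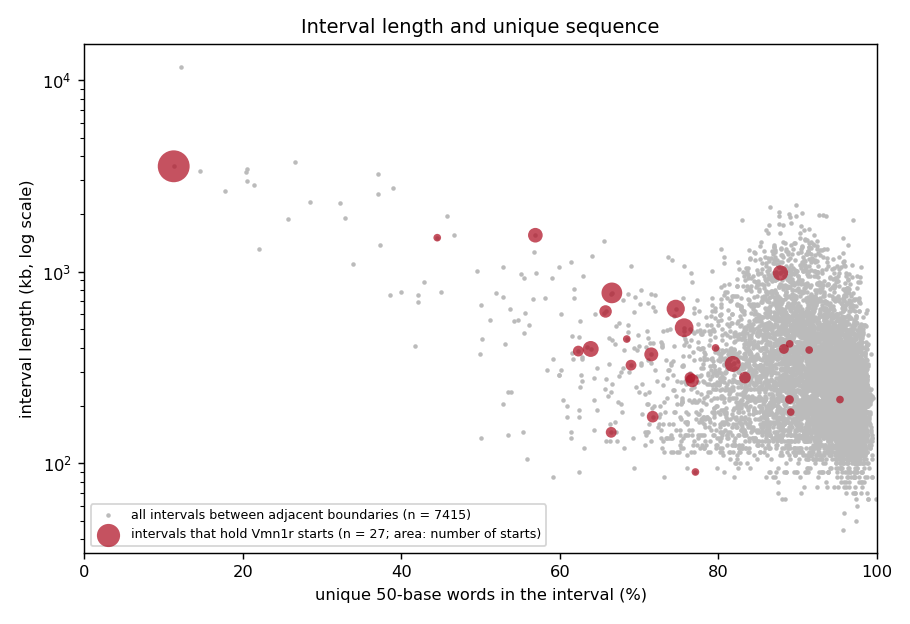
Length of each interval between adjacent boundaries (vertical axis, kb, logarithmic) against the share of its 50-base words that occur once in the genome (percent), for all 7415 intervals in grey and the 27 with Vmn1r starts in red, with area growing with the number of starts. The interval with 50 Vmn1r starts sits at the far left, at 11.3% and 3550 kb.

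Density was also set against repeated sequence in windows of 10 kb. Windows with under 60% unique words made up 44.4% of the cluster windows and 8.15% of the genome's. In such windows the clusters held 1 boundary in 4.69 Mb, 0.213 per Mb (exact Poisson 95% interval 0.00540 to 1.19), and the genome 0.802 per Mb. In windows with 60% or more, the clusters held 13 in 5.88 Mb, 2.21 per Mb (interval 1.18 to 3.78), and the genome 3.11 per Mb. In both kinds of window the genome's value was the higher and lay within the clusters' interval, which gives counting error only.

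The most repeated windows were nearly empty of boundaries everywhere. Under 20% unique words the whole list had 1 boundary in 49.9 Mb, 0.0200 per Mb, and the clusters had 0 in 3.17 Mb, which allows up to 1.16 per Mb. With 80% or more, the clusters held 11 boundaries, 2.62 per Mb (interval 1.31 to 4.69), and the genome 3.09 per Mb. At the genome's rates for the 5 classes of window the clusters would hold 20.2 boundaries, and at its overall rate 30.9, against the 14 found. These sums are descriptions of the list, without a test.

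**Figure D4:**
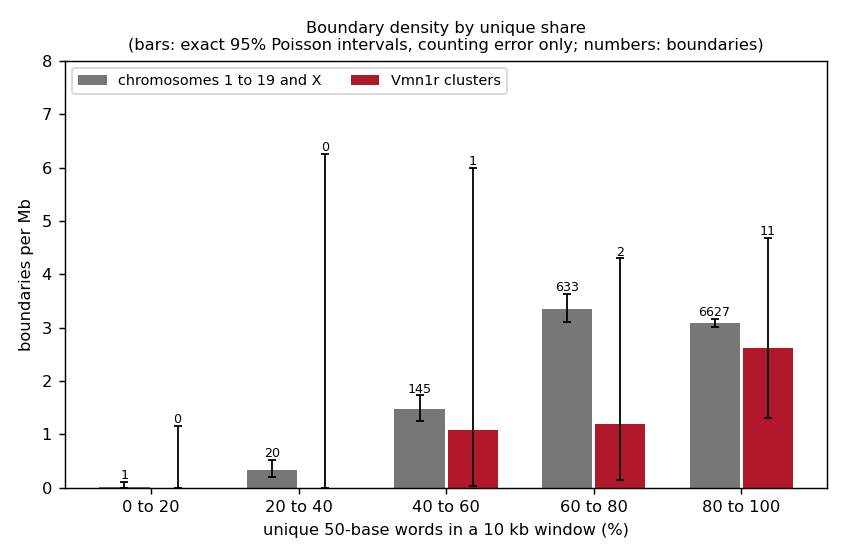
Boundaries per Mb in windows of 10 kb, by the share of 50-base words that occur once in the genome, for chromosomes 1 to 19 and X (grey) and the Vmn1r clusters (red), with exact 95% Poisson intervals (counting error only) and the number of boundaries above each bar. The grey bar of the most repeated class is near 0, at 0.0200 per Mb, and the red intervals are wide because the clusters hold 14 boundaries in all.

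The longest interval was the most repeated of all 7415. Of its words, 11.3% were unique, 10.4% occurred 2 times, 44.6% 3 to 10 times and 33.7% more often. Most of the copies were local: in the whole cluster Vmn1r91 to Vmn1r183, 56.0% of words were repeated only within the cluster, 23.7% both within and elsewhere, and 2.71% only elsewhere. The interval also holds 50000 unknown bases in 1 run of the assembly.

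Its Vmn1r genes were near-copies of each other. The 50 members had a median identity of 99.8% to their most similar member over the coding sequence (lowest 94.9%). At 99% or more were 36 of them and at 100% were 14, and for 49 the most similar member lay in the same interval. The bodies of 30 of the 50 held no unique word among those sampled every 100 bases. Among the 159 other members the median identity was 90.9% and 4 reached 99%.

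The 5 members farthest from a boundary belong to this group. They are Vmn1r135 at 1692.7 kb, Vmn1r132 at 1639.1 kb, Vmn1r131 at 1571.1 kb, Vmn1r130 at 1536.8 kb and Vmn1r137 at 1530.4 kb. Each had another member with 100% identical coding sequence, and none had a unique word among the 9 or 10 sampled in it. Of the 38 other coding genes in the cluster, 25 were at least 70% identical to a member in coding sequence. They are genes with Gm symbols and V1rd19, which the choice by symbol left out.

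Many copies were spaced alike. Of the 50 members, 15 lay 1.9 to 2.1 Mb from their most similar member, Vmn1r107 and Vmn1r155 among them. Over all sampled words of the interval the same spacing appeared: of 3654 words that occur 2 times in the genome, 93.3% had both copies in the interval, and 1985 (54.3%) were spaced 1.9 to 2.1 Mb. Promoter stretches could be compared for 47 of the members and their most similar member, and 29 were identical over the 300 bases (median 100%, lowest 51.2%). The lowest was that of Vmn1r167, whose most similar member lies outside the interval. Vmn1r100 and Vmn1r148 (chosen after their values were seen) had 52.3% despite 100% identical coding sequence. The RefSeq start of Vmn1r148 lies at -1.35 kb from its GENCODE start, so their stretches are not at matching positions.

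**Figure D5:**
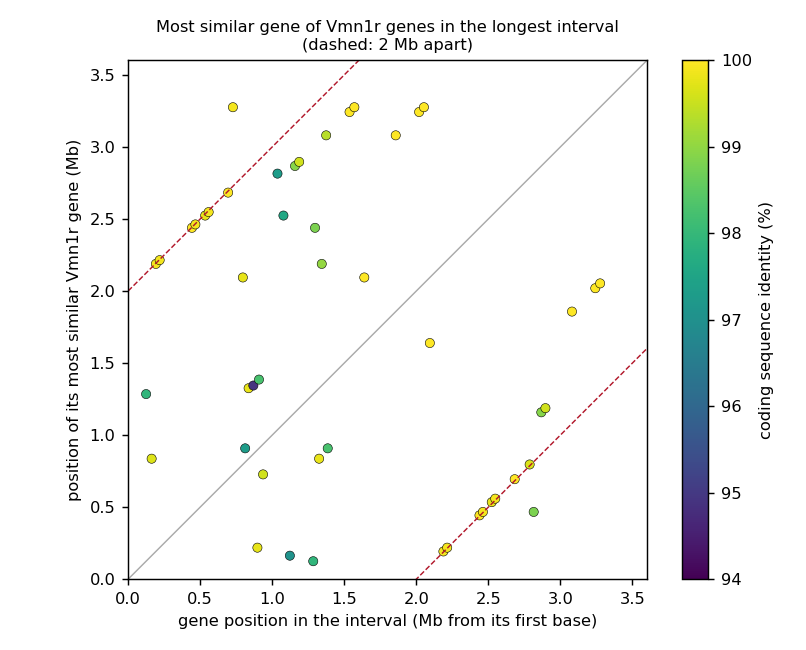
Position of the most similar Vmn1r gene (vertical axis, Mb from the first base of the longest interval) against the position of the gene (horizontal axis, Mb), for the 49 members with their most similar member in the interval, coloured by identity of the coding sequence (percent). Points on the dashed lines lie 2 Mb from their partner, and 15 members lie 1.9 to 2.1 Mb from theirs.

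At its right end the interval gives way to more unique sequence and to boundaries. The Weak boundary at 23525001 to 23530000, scored 0.235, was followed by an interval of 395 kb with 11 members, Vmn1r168 to Vmn1r178 (the latter chosen after its value was seen), and 63.9% unique words. Then came the Strong boundary at Vmn1r179 and another interval of 395 kb with 88.3% unique words and the last 3 starts. The 11 genes of the cluster with a V1rd name had a median distance of 100.7 kb, whereas the 54 without a subfamily name had 868.5 kb.

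Outside the longest interval, Vmn1r starts still lay farther from boundaries than coding starts do. The 159 other members had a median distance of 100.8 kb against 58.4 kb, their genes had a median of 90.5% unique words, 9 (5.66%) lay within 10 kb, and 82 (51.6%) lay beyond 100 kb. The clusters also differed from the genome in base content, beside repeats. With the largest cluster included, they held 40.02% GC against 41.76%, 55.8% of masked repeats against 34.3%, and 3.03 GATC letters per kb against 2.51. Without the largest cluster the values were 39.57% GC, 51.0% of masked repeats and 2.94 GATC letters per kb. Sites for DpnII were not fewer in either case. The part of these features in the distances was not tested.

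By subfamily, as given by older V1r names for 127 members, the medians followed the clusters that hold each. The 2 V1rj genes were nearest, with a median of 28.6 kb, in the short interval of Vmn1r85 to Vmn1r89. V1rc genes (31) had 85.3 kb, V1rd (19) 89.0 kb, V1ri (10) 104.2 kb, V1rg (11) 130.3 kb and V1rf (5) 132.1 kb. V1rh genes (20) had 150.9 kb, V1re (13) 184.6 kb, V1ra (8) 196.9 kb and V1rb (7) 198.7 kb. This order leaves out genes without an older name, among them 54 of the largest cluster with a median of 868.5 kb. The V1rd value counts only the 11 genes of that cluster that carry a V1rd name. Neighbouring medians in this order lie well within the range of distances in each subfamily, for example 1.62 to 246.7 kb for V1rc.

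The other large families of tandem chemoreceptor genes were set beside the Vmn1r genes. The 122 Vmn2r genes, type 2 vomeronasal receptors of the basal layer, had a median distance of 165.7 kb, 6 starts (4.92%) within 10 kb and 20 (16.4%) beyond 500 kb. Their clusters held 1.66 boundaries per Mb at 63.2% unique words. The 1135 Olfr genes, odorant receptors and the kind these cells express, had a median of 104.4 kb, 67 starts (5.90%) within 10 kb, and 2.45 boundaries per Mb at 82.5% unique words.
With all clusters, Vmn1r had the lowest boundary density and the lowest unique share of the 3 families, and its median distance lay between those of the others. This order changed when the cluster Vmn1r91 to Vmn1r183 was left out. The density of 1.80 per Mb and the unique share of 76.3% were then above those of Vmn2r. The median distance of 104.6 kb was level with that of Olfr. Vmn2r and Olfr kept all their clusters, so the sets are unlike, and the longest interval with a Vmn2r start was 3340 kb. The shares of starts within 10 kb were 4.31% for Vmn1r, 4.92% for Vmn2r and 5.90% for Olfr, against 12.4% of all coding starts. A boundary lay within 25 kb of 9 of 20 cluster ends for Vmn1r, 25 of 66 (37.9%) for Olfr and 1 of 18 (5.56%) for Vmn2r. None of these differences was tested.

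Genes that vomeronasal neurons use besides receptors were also placed against the boundaries. Of a list of 16 such genes, 4 (25.0%) started within 10 kb of a boundary, against 12.4% of all coding starts, and the median distance was 39.9 kb. Tfap2e, a transcription factor of basal vomeronasal neurons, started inside a Weak boundary scored 0.455. Robo2, an axon guidance receptor, started 3.18 kb from a Strong boundary scored 2.15, Gnao1, the G protein subunit of basal neurons, 4.97 kb from a Weak one scored 0.341, and Bcl11b, a transcription factor, 6.40 kb from a Strong one scored 1.63. Beyond 100 kb were also 4 of the 16, against 27.6% of all coding starts. Gnai2, the G protein subunit of apical neurons (chosen after its value was seen), started at 115.4 kb. Farthest were Trpc2 at 171.9 kb, the adhesion gene Ncam2 at 155.7 kb and the channel gene Ano1 at 143.0 kb. Many of these genes are also expressed outside the vomeronasal organ, and no test of the list was made.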

How the data were processed

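In situ Hi-C of 2 replicates was summarised by the authors as 1 list of boundaries called on the combined contacts, per the series design text. Per 5 kb boundary the deposited values are a score of its strength and a class named Weak or Strong, and the authors' score was used only to describe boundaries within the list. Coordinates are on GRCm38, per the submitters' processing notes. The sources used here do not give the caller, its window, the aligner, the read depth or the score's formula, and contact matrices were not used here.

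Genes came from GENCODE M21, promoters and alternative starts from RefSeq (GRCm38.p6), where 208 members matched by symbol. The 5′ end of a gene was its start, near meant within 10 kb of the boundary, and a cluster end was near within 25 kb. Genes less than 500 kb from the next were grouped, and groups of 5 or more were called clusters. Words of 50 bases were sampled every 100 bases and counted on both strands of the assembled chromosomes. Coding sequences were aligned with edlib 1.3.9. Values were computed in Python 3.11.15 with numpy 2.4.6 and pandas 2.3.3, and the counting of words and distances was checked on simulated data.

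No test was made, because the pooled list has no spread over samples. Members, lists and rules were chosen with earlier results of these data known. Named genes are members near or overlapping a boundary, the 5 farthest, the first and last gene of each cluster, members outside clusters within 25 kb, the nearest other coding gene to each boundary inside or within 25 kb of a cluster end, and, from the list of vomeronasal neuron genes, those within 10 kb and the 3 farthest. Alternatives covered the distance limit, the class, the annotation, the cluster definition and the word length.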

Additional observations from a re-analysis of the deposited data

How the results depend on the processing

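The 9 starts near a boundary became 4 inside one, 22 within 25 kb, 44 within 50 kb, 4 with Strong boundaries alone, and 19 of 327 when pseudogenes were added. The median distance of 150.2 kb became 337.7 kb to Strong boundaries. The density of 1.32 per Mb became 0.471 with Strong boundaries, 2.06 with spans extended by 100 kb and 2.21 in windows with at least 60% unique words. Of 20 cluster ends, 9 within 25 kb became 2 within 10 kb, and 5 of 14 for clusters of at least 10 genes. The median interval of 390 kb became 1040 kb between Strong boundaries and 640 kb when weighted by starts. The unique share of 54.6% became 48.1% with words of 36 bases and 64.8% with words of 100. The other alternatives left these values within 1.5 times for counts, or on the same side of the list's value for medians and densities; the annotation of the start, the density by any overlap and the median without the largest cluster were added after seeing the data. No paired analysis was possible because the 2 replicates form 1 group and the list holds no value per replicate, and for the same reason no replicate could be left out. The depth behind a boundary is unknown, and the part of repeated sequence in these values was not tested.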

Other observations

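For 196 of the 209 members the most similar member in coding sequence lay in the same cluster, and some of the other pairs cross chromosomes. Vmn1r239-ps on the X chromosome was 99.9% identical to Vmn1r41 on chromosome 6, and 10.0% of its words were unique. Vmn1r238 on chromosome 18 was 98.9% identical to Vmn1r79 on chromosome 7, with 20% unique words. Vmn1r2 and Vmn1r3 on chromosome 4 were 99.02% identical to each other, with 28.1 and 20% unique words, and lay 337.7 and 319.6 kb from the nearest boundary, before the first boundary of their chromosome, as did Vmn1r238 at 136.6 kb on chromosome 18. Among the members whose most similar member lay outside their own cluster, Vmn1r70, Vmn1r230 and Vmn1r1 had the lowest identities, 63.5, 67.5 and 68.1%. Apart from Vmn1r1 and Vmn1r239-ps, which the naming rule covers, these genes were chosen after their values were seen.

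In the longest interval the words that occur 2 times also had less frequent spacings. Beside the 1985 words spaced 1.9 to 2.1 Mb, 640 were spaced 1.22 to 1.23 Mb, 394 were spaced 1.70 to 1.71 Mb and 235 were spaced 0.48 to 0.49 Mb.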
